A study of Danio rerio with 6 samples.

Results

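Transcripts of the ribosomal proteins, the protein parts of the cytoplasmic ribosome, were followed across 6 RNA-seq libraries of the zebrafish embryonic kidney. Genes were taken by name: every row of the deposited count table whose name begins with rpl or rps and a digit, or with rplp, apart from the rps6k kinases. This gave 77 of 10022 rows, 44 of the large subunit (rpl and rplp names) and 33 of the small subunit (rps names). The 3 control libraries came from epcam+/+ embryos, and in the 3 mutant libraries both copies of epcam, the gene of an epithelial adhesion protein, carried the allele hi2151. All 6 carried Tg(wt1b:GFP) and Tg(cdh17:GFP), reporters named for a podocyte transcription factor gene and a pronephric cadherin gene. Cells of the distal pronephric tubule were cut out with a laser at 48 hours post fertilization, and their cDNA was amplified from random and oligo(dT) primers. How many embryos stand behind a library is not known here, so p-values measure the spread between these libraries, part of which may be technical.

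A ribosome has a small subunit that reads the mRNA and a large subunit that joins amino acids, and each is built of ribosomal RNA and many proteins. The genes for these proteins are expressed in every cell, and their mRNAs are among the most abundant. In vertebrates these mRNAs begin with a pyrimidine-rich stretch, the 5' TOP motif, through which their translation is controlled together by the growth kinase mTOR. Some vertebrate ribosomal protein genes have a second copy from gene or genome duplication.

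Total counts were 188022 to 746232 in controls and 126861 to 250714 in mutants, once the lowest value of each column had been subtracted. Library names begin with NG-8793 for controls 1 and 2 and with NG-8710 for control 3 and all mutants, so for controls 1 and 2 genotype and name prefix cannot be told apart. The epcam gene itself had 10, 15 and 10 counts in controls 1 to 3 and 0 in each mutant. Of 12 distal tubule marker names 11 were in the table, with 8 to 11 detected in each library. Their summed levels were 2553, 2656 and 963 CPM (counts per 1e+06 of the library total) in controls 1 to 3. In mutants 1 to 3 they were 4546, 733 and 2289 CPM. Pan-pronephric markers, 8 of 9 names, were at 8419, 6999 and 777 CPM in controls 1 to 3 and 8935, 1521 and 3510 in mutants, with control 3 lowest. Of 17 liver, gut and yolk marker names 16 were in the table, at 8589, 10944 and 99579 CPM in controls 1 to 3 and 389 to 957 in mutants. All 16 were detected in each control and 10 to 15 of them in each mutant. Of 10 skin marker names 8 were in the table, at 2535 to 38107 CPM in controls and 690 to 3095 in mutants, with control 3 highest. Muscle markers, 10 of 11 names, were at 21556 CPM in control 1, 847 and 766 in controls 2 and 3 and 2891 to 8631 in mutants. Neuron markers, only 2 of 9 names, were at 2.68 to 72.4 CPM in controls and 197 to 449 in mutants. Fewer cells of a type and less RNA per cell cannot be told apart in such captures.

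Ribosomal protein transcripts took up a smaller part of the mutant libraries than of the controls in these values, and the group means were lower for both subunits. The 77 genes made up 5.70%, 3.78% and 3.22% of counts in controls 1 to 3, and the mutants, in the same order, had 3.18%, 1.28% and 1.76%. No mutant exceeded a control, but mutant 1 reached 98.7% of the share of control 3, the nearest control. These 2 libraries lay further apart with TMM scaling, which sets libraries to a common level by their middle genes. The sums were then 35574 CPM in control 3 and 29357 in mutant 1, and the mutant over control ratio was 0.34. The mean share of counts was 4.23 ± 1.30% in controls and 2.07 ± 0.99% in mutants (SD, n = 3 per group), a control level 2.04-fold that of the mutants. Against control 3 alone, the only control with the name prefix of the mutants, it was 1.55-fold. The control mean was 2.05-fold that of the mutants for the large subunit and 2.03-fold for the small subunit. The nearness of these ratios depended on controls 1 and 2 together. The large subunit share of ribosomal protein counts, mutants minus controls, was 0.90 percentage points with all libraries. It was 5.27 without control 1 and -3.99 without control 2. Taken by subunit, mutant 1 edged past 1 control each time: its large subunit sum of 19601 CPM lay above the 19501 of control 2, and its small subunit sum of 12163 CPM above the 12094 of control 3. Controls 1 and 2, the deepest libraries, had the highest shares, and the part of depth in this difference was not tested. The part of tubule, liver, skin, muscle and neuron RNA was not tested either. Control 3, the highest library in liver and skin markers, had the lowest ribosomal protein share of the controls. The mutants, lowest in liver markers, had lower shares still. Control 1 was highest in muscle markers and in share. Mutants 3 and 2 came next in muscle markers, at 8631 and 5526 CPM, and had the lowest shares.

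**Figure D1:**
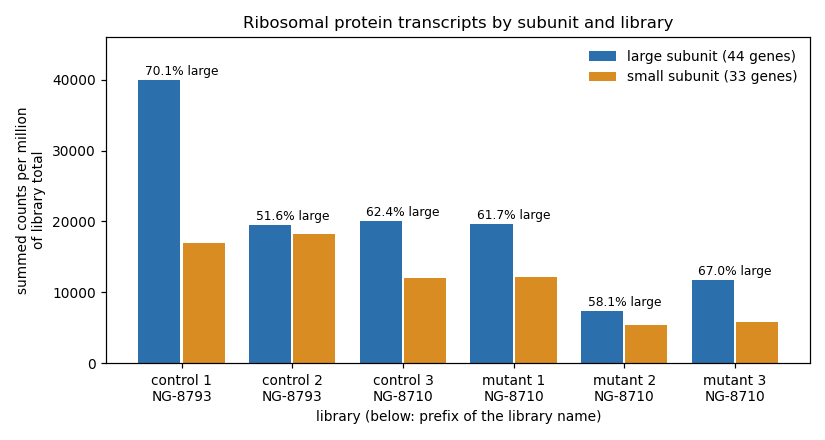
Summed CPM of the 44 large subunit genes and the 33 small subunit genes in each library, with the prefix of the library name below. Control 1 has the tallest large subunit bar and mutants 2 and 3 the lowest bars of both kinds, while control 3 and mutant 1 nearly match.

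The balance between the subunits varied between libraries and showed no direction with genotype. Large subunit genes took 70.1% of ribosomal protein counts in control 1 (95% exact binomial interval 69.6 to 70.6%), 51.6% in control 2 (51.0 to 52.2%) and 62.4% in control 3 (61.2 to 63.6%). In mutants 1 to 3 the share was 61.7% (60.4 to 63.0%), 58.1% (55.7 to 60.5%) and 67.0% (65.6 to 68.4%). These intervals cover counting error only, since amplified copies are not independent molecules. All 3 mutant shares lay between those of controls 1 and 2. The group means were 61.4 ± 9.30% and 62.3 ± 4.49% (SD, n = 3), a difference of 0.90 percentage points that was smaller than the spread within either group. Single genes carried much of the gap between controls 1 and 2: with rpl3 and rps23 left out, the members with most counts, the share was 71.8% and 62.8% there, 64.9% in control 3 and 69.0%, 61.4% and 69.6% in the mutants.

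The comparison of mutants with controls was read gene by gene from edgeR's quasi-likelihood test over the whole table. Of the 77 genes 60 passed the filter on low counts, and 57 of these had a negative log2 fold change, where 52.2% of all 3869 tested rows did. The filter could favour genes that are high in 1 group, so the fit without it was read as well: there 69 of 77 were negative, against 52.9% of all rows. None of the 60 passed a Benjamini-Hochberg adjusted p of 0.05, and neither did any of the 3869 rows (0%). At an unadjusted p under 0.05 the members rps9 and rpl24 were lower, 2 of 60 against 3.49% of all tested rows, and none was higher, against 7.73%. DESeq2 called 0 of the members, where of the 7961 rows given an adjusted p it called 0.703% lower and 3.68% higher. The members rpl5a, rpl14, rpl22l1, rplp2l and rps26l were given no adjusted p by DESeq2 and could not be called there. No member was called lower with the name prefix as a term, where 0.155% of rows were, or within the libraries named NG-8710, where 0.149% were, and the authors' deposited table of 379 differing genes lists none of them.

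The median log2 fold change was -1.46 over the 60 genes and -0.10 over all tested rows, with large subunit genes at -1.45 and small subunit genes at -1.47. The 35 tested large subunit genes included 33 below 0, and the 25 small subunit genes 24. The level of the median depends on scaling: with library totals alone it was -0.80, with 51 of 60 genes below 0 where 36.5% of all rows were, and the median of all rows moved to 0.60. Among the 45 members with a mean count of at least 50, a mean that the deeper controls weigh on, it was -0.70 beside -0.46 for all such rows, with 40 of 45 below 0 against 61.9% of rows. Taking instead members with a mean of at least 100 CPM, which weighs libraries equally, gave -1.20 beside -0.27, with 48 of 50 below 0 against 54.9%. This last setting was chosen after the data were seen. Within the libraries named NG-8710, where control 3 stands alone against the mutants, the median was -1.15 over 68 members beside 1.16 for all rows, with 56 of 68 below 0 against 35.4%.

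**Figure D2:**
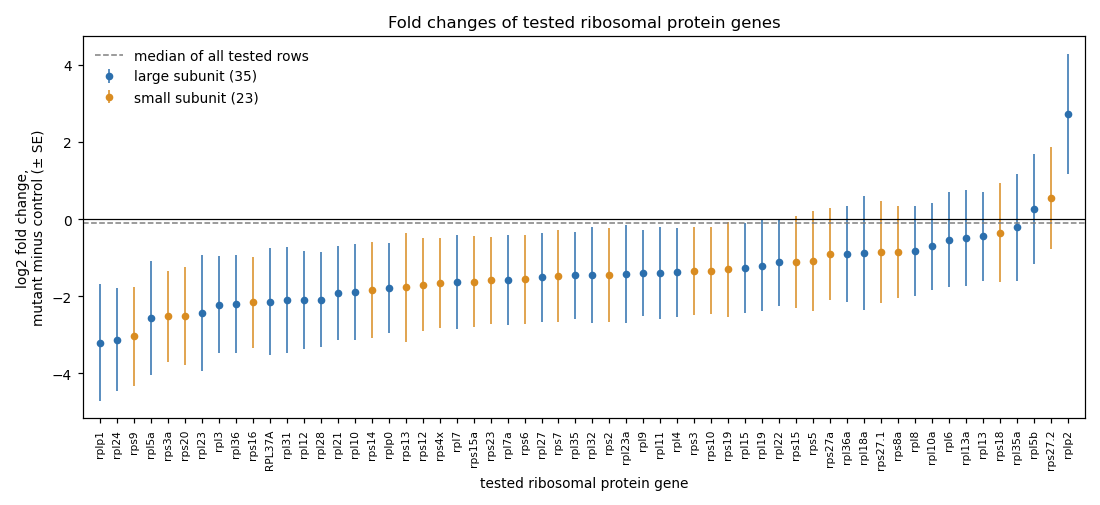
Log2 fold change with its standard error for 58 of the 60 tested ribosomal protein genes, ordered by value and coloured by subunit, with the median of all tested rows as a dashed line. Genes of both subunits are mixed along the order, 55 lie below 0, and rplp2 stands alone at the upper end.

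For 18 of the 77 genes every control lay above every mutant in CPM, 23.4% where 3.75% of all rows did so. Mutants lay above controls for 0 of them, where 14.5% of all rows did. The 18 were 7 of 44 large subunit genes (rpl9, rpl18, rpl30, rpl32, rpl36, rplp0 and rplp1) and 11 of 33 small subunit genes (among them rps3a, rps4x, rps6, rps7, rps12, rps13, rps14, rps16 and rps20). Of the 60 tested genes 15 were so separated, against 5.58% of tested rows. Neither all rows nor the tested rows were matched to the members in level. With TMM scaling the count was 33 of 77 against 6.08% of rows, 16 large and 17 small. The subunits were not tested against each other, since their members were chosen with results known. Control 3 alone lay above all mutants for 36 genes, 46.8% where 21.9% of rows did so.

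The genes of the ribosomal stalk gave values in both directions. The stalk is a flexible arm of the large subunit that recruits elongation factors, made of the scaffold P0 and dimers of the acidic proteins P1 and P2. The scaffold gene rplp0 (ENSDARG00000051783, GRCz10 chromosome 5, 1685335 to 1698173) had 2024, 1178 and 1681 CPM in controls and 923, 221 and 806 in mutants. All controls were above all mutants, and the log2 fold change was -1.78 ± 1.17 (SE, n = 3 per group), with an edgeR adjusted p of 0.625. The P1 gene rplp1 (ENSDARG00000021864, chromosome 19, 1902223 to 1905513) was counted 97, 111 and 12 times in controls and 0, 1 and 13 times in mutants. Control 3 and mutant 3 nearly met, at 63.8 and 51.9 CPM, and the log2 fold change was -3.20 ± 1.51 (edgeR adjusted p = 0.453), or -5.36 without mutant 3. The P2 gene rplp2 (ENSDARG00000101406, chromosome 6, 49510152 to 49511900) went the other way, with 5, 18 and 16 counts in controls and 141, 1 and 47 in mutants. Its high value rests on mutants 1 and 3, while mutant 2 held a single count. The log2 fold change of 2.72 ± 1.57 (edgeR adjusted p = 0.584) was 0.74 without mutant 1. A second P2 gene, rplp2l, had 26, 5 and 2 counts in controls and 2, 2 and 5 in mutants, too few for the test.

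Of the large subunit genes with most reads, rpl3 and rpl8 encode proteins beside the peptidyl transferase centre, where peptide bonds form. The level of rpl3 (ENSDARG00000003599, chromosome 3, 29736371 to 29740522) was 11587, 981 and 2303 CPM in controls and 755, 1135 and 2656 in mutants. Control 1 stood apart and the remaining 5 libraries overlapped. The log2 fold change was accordingly -2.22 ± 1.26 with all libraries (edgeR adjusted p = 0.582) and -0.78 without control 1. The gene rpl8 (ENSDARG00000014867, chromosome 9, 33512349 to 33519041) had 3042, 3803 and 1271 CPM in controls and 3861, 1143 and 901 in mutants. Here the highest value of all was in mutant 1, and the log2 fold change of -0.83 ± 1.17 (edgeR adjusted p = 0.852) was 0.29 within the NG-8710 libraries. The protein of rpl4 reaches into the exit tunnel for the new peptide, and its gene had 4101, 1341 and 2111 CPM in controls and 1690, 591 and 1703 in mutants. That of rpl35 lies at the mouth of the tunnel, and its gene had 4128, 2121 and 1463 CPM in controls and 1742, 962 and 1013 in mutants. Mutants 1 and 3 lay above control 2 for rpl4 and mutant 1 above control 3 for rpl35, and the log2 fold changes were -1.38 ± 1.14 and -1.46 ± 1.13.

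The gene rpl13a, whose human protein is also known to leave the ribosome and silence inflammatory mRNAs, followed the libraries in another way. It had 389, 752 and 2282 CPM in controls and 2125, 694 and 371 in mutants. Control 3 and mutant 1 were high together and the other 4 libraries low, and the log2 fold change was -0.50 ± 1.24 (edgeR adjusted p = 0.922), or 0.34 without control 3. Its share of ribosomal protein counts ran from 0.68% in control 1 (95% exact binomial interval 0.60 to 0.78%) to 7.09% in control 3 (6.46 to 7.77%). The share of rpl3 was 20.3% in control 1, 2.60% in control 2 and 2.38% in mutant 1. By contrast rpl35 kept between 4.54% and 7.54% in all 6 libraries.

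**Figure D3:**
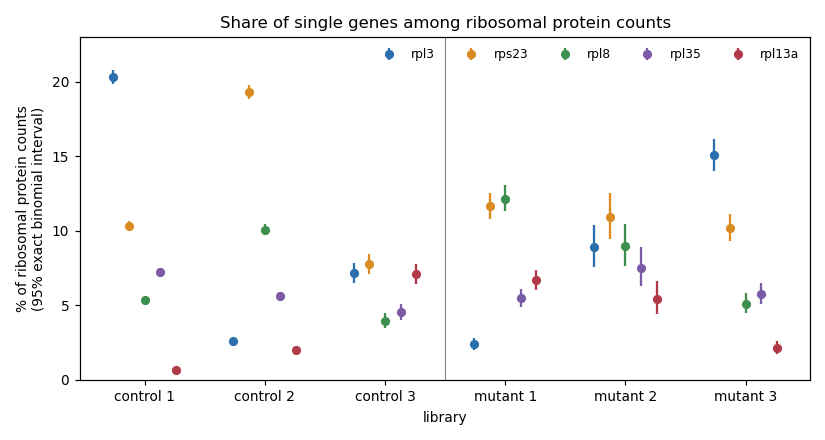
Share of ribosomal protein counts held by rpl3, rps23, rpl8, rpl35 and rpl13a in each library, with 95% exact binomial intervals that cover counting error only. The share of rpl3 ranges from 2.38% to 20.3% without following genotype, while that of rpl35 stays within 4.54% to 7.54%.

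The bridge protein of rpl24, which links the large subunit to the small one, had the second largest negative value among tested members. Its gene (ENSDARG00000099104, chromosome 1, 6408 to 12027) was counted 669, 320 and 12 times in controls and 18, 8 and 23 times in mutants. In CPM that is 1211, 429 and 63.8 against 105, 63.1 and 91.7, so controls 1 and 2 were high and control 3 sat among the mutants. The log2 fold change was -3.13 ± 1.33 (unadjusted p = 0.034, edgeR adjusted p = 0.382), and 0.02 within the NG-8710 libraries. The difference in rpl24 therefore lay between controls 1 and 2 and all 4 libraries of the other prefix.

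Small subunit genes with many reads were lower in value in the mutants, with unequal support from control 3. The protein of rps23 sits at the decoding centre, where codon and anticodon are matched, and its gene had 5870, 7290 and 2494 CPM in controls and 3698, 1395 and 1799 in mutants. Mutant 1 was above control 3, and the log2 fold change was -1.59 ± 1.13 (edgeR adjusted p = 0.659). The gene rps9, whose protein affects the accuracy of decoding, had the smallest p of the members. It had 1271, 951 and 160 CPM in controls and 186, 63.1 and 140 in mutants, a log2 fold change of -3.04 ± 1.29 (unadjusted p = 0.033, edgeR adjusted p = 0.379). As for rpl24, controls 1 and 2 were high and control 3 lay within the range of the mutants, with a value of -0.70 inside the NG-8710 libraries.

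A few small subunit genes separated the groups in every library. The gene rps3a (ENSDARG00000035692, chromosome 1, 23664686 to 23668824), whose protein lies near the mRNA exit, had 1218, 3447 and 1213 CPM in controls and 406, 481 and 515 in mutants. The lowest control was well above the highest mutant, and the log2 fold change was -2.52 ± 1.18 (edgeR adjusted p = 0.444), between -3.00 and -1.98 with any 1 library left out. The gene rps6, whose protein is the classical target of S6 kinase, had 894, 1331 and 1239 CPM in controls and 732, 536 and 279 in mutants, with -1.56 ± 1.15. The gene rps16 had 208, 212 and 282 CPM in controls and 46.4, 63.1 and 112 in mutants, with -2.16 ± 1.18. For rps3a, rps6 and rps16 the value within the NG-8710 libraries, from -2.39 to -1.64, kept the sign, and none passed the adjusted threshold of edgeR's test. The gene rps20 had 608, 327 and 170.2 CPM in controls and 168.4, 55.2 and 23.9 in mutants, so control 3 and mutant 1 nearly met (-2.51 ± 1.28, edgeR adjusted p = 0.521). The gene rps27a, which encodes ubiquitin fused to a ribosomal protein, overlapped between the groups, with 1119, 280 and 883 CPM in controls and 952, 276 and 375 in mutants.

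Within-group ranges were narrow for rps7, a gene singled out after its values were seen. It had 154, 173 and 165 CPM in controls and 92.9, 70.9 and 75.8 in mutants, a log2 fold change of -1.47 ± 1.19 (edgeR adjusted p = 0.700). The rule for named genes takes in every tested gene above 0, so the 36 tested genes outside it are negative by construction, from -2.43 (rpl23) to -0.22 (rpl35a) with a median of -1.43, although rpl23 was at 1.02 within the NG-8710 libraries. Of the 77 genes 61 had their highest CPM in a control and 16 in a mutant, 11 of the latter in mutant 1. Mutant 2 held the lowest value of 37 genes and mutant 3 that of 18, with a tie at 0 given to the first library in order. Such counts were not taken over all rows, so they are a description only.

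**Figure D4:**
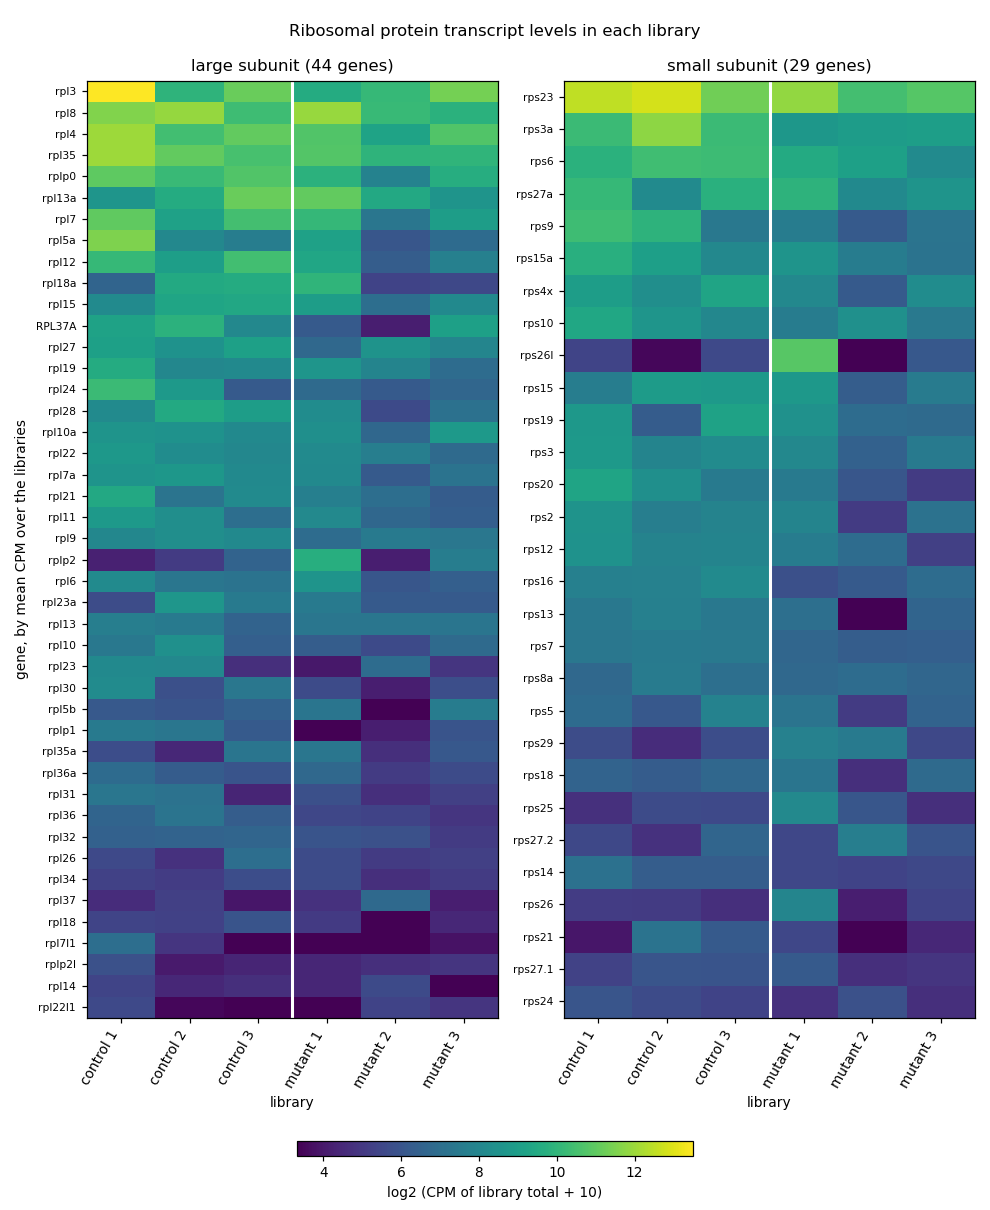
Log2 of CPM of library total plus 10 for 73 of the 77 ribosomal protein genes in the 6 libraries, in the order of mean CPM within each subunit. Rows keep similar colours across libraries, columns of mutants 2 and 3 are darker, and rps26l and rplp2 stand out as bright in mutant 1.

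The 17 members that failed the filter were small in counts and less uniform. Without a filter 12 of them had negative and 5 positive values, from -5.16 (rpl7l1) to 4.39 (rps26l). The gene rps26l, a like-named relative of the mRNA exit protein gene rps26, was counted 18, 1 and 7 times in controls and 315, 0 and 15 times in mutants. Nearly all of its reads were in mutant 1, at 1829 CPM against at most 59.8 in any other library. Mutant 1 was also highest for rps26 (41 counts, 238 CPM), rps25 (46 counts, 267 CPM) and rps29 (37 counts, 215 CPM), while the controls had 14.7 to 42.5 CPM for these 3 genes. In mutant 2 rps29 was high as well, at 173 CPM (22 counts), with rps25 at 55.2 and rps26 at 7.88 CPM. The rows rps26l and rplp2, both high in mutant 1, are neighbours on the minus strand of chromosome 6 with 10152 bases between them. The genes rpl3 and rpl27 are neighbours on chromosome 3 with 22601 bases between them, and did not share such a peak: rpl27 had 297, 266 and 103 counts in controls and 17, 46 and 59 in mutants. Members rps12 and rpl37 overlap other rows of the table. Sequencing was unstranded, so within the stretch of overlap, reads of rps12 and rpl37 cannot be told apart from those of the opposite-strand gene.

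Genes that share a name and number with another member were compared as pairs. Reads of such copies can be split or shared between rows by alignment, so their single values are uncertain. The pair of rpl5 genes encodes the protein that carries 5S ribosomal RNA into the large subunit and binds Mdm2 in mammals. The copy rpl5a had 1626, 195 and 36 counts in controls and 97, 7 and 27 in mutants, and rpl5b had 34, 39 and 15 against 25, 0 and 46. The share of rpl5b in the pair was 2.05% in control 1 (95% exact binomial interval 1.42 to 2.85%) and 63.0% in mutant 3 (50.9 to 74.0%). It was 16.7% and 29.4% in controls 2 and 3 and 20.5% and 0% in mutants 1 and 2, so the groups overlapped. The log2 fold change of rpl5a was -2.57 ± 1.47 with all libraries (edgeR adjusted p = 0.584) and -0.43 without control 1. The value of rpl5b was 0.27 ± 1.42, one of 3 above 0 beside rplp2 and rps27.2, and turned negative in several alternatives.

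For rps27, a pair with few counts, the copy rps27.1 had 17, 40 and 10 counts in controls and 11, 2 and 5 in mutants. The copy rps27.2 had 20, 13 and 17 against 6, 25 and 13, and log2 fold changes were -0.86 ± 1.33 and 0.56 ± 1.32.

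Other pairs kept a dominant member. The gene rpl22, whose protein binds RNA beside its place in the ribosome, had 230, 222 and 47 counts in controls and 48, 25 and 26 in mutants. Its relative rpl22l1 had 21, 1 and 0 against 0, 4 and 5, and at most 16.1% of the pair (mutant 3, 5.45 to 33.7%). The gene rpl7 had 1133, 410 and 261 counts in controls and 185, 19 and 124 in mutants. Its relative rpl7l1 had 65, 15 and 0 against 0, 0 and 1, so its reads lay in the NG-8793 libraries apart from a single count.

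**Figure D5:**
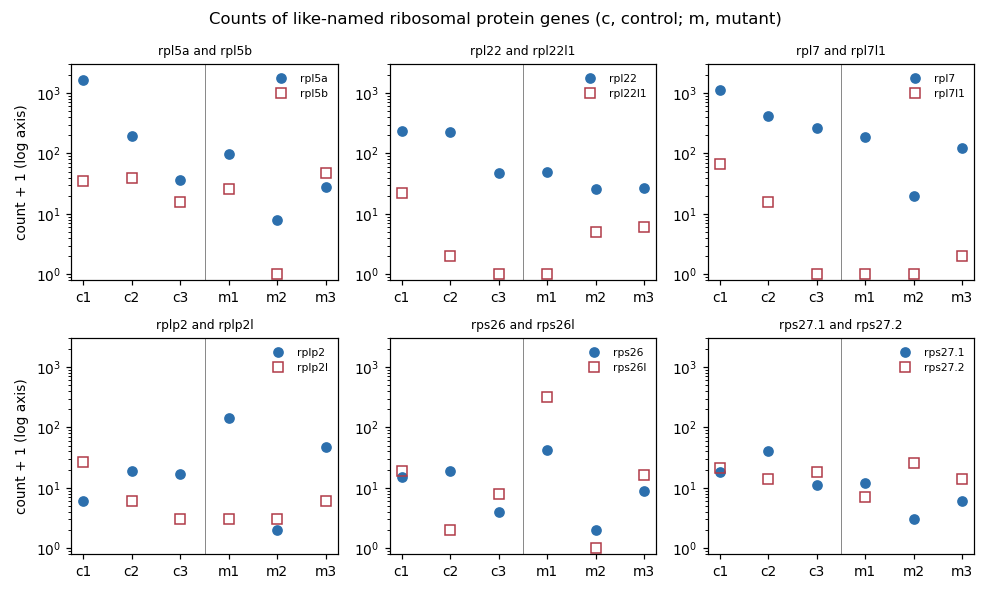
Counts plus 1 on a log axis for 6 pairs of like-named ribosomal protein genes in controls (c1 to c3) and mutants (m1 to m3), not scaled for depth. The copy rps26l lies far above rps26 in mutant 1, and rpl7 and rpl22 exceed their relatives in all 6 libraries.

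Libraries resembled each other more in their ribosomal protein genes than in the rest of the table. The Pearson correlation of log2 (CPM + 10) across the 77 genes was 0.55 (mutants 1 and 2) to 0.84 (control 3 and mutant 3), with a median of 0.72 over the 15 pairs of libraries. Across the other 9945 rows it was 0.10 to 0.44, with a median of 0.24. Those rows were not matched to the members in level: 60 of the 77 members passed the filter on low counts, against 3869 of all 10022 rows. The part of low counts in this contrast was not tested. The genes are not independent replicates, and every pair of libraries shares their lengths and base composition, so these values are a description. Library resemblance did not follow genotype: control 3 was closer to mutant 3 (0.84) than to control 1 (0.72).

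Other parts of the translation machinery were read from lists of names, written with earlier results of these data known. Among 23 other 5' TOP and ribosome-bound genes 20 were in the table and 17 tested, 16 negative and 1 positive, with a median of -1.64. Of all tested rows 52.2% were negative, with a median of -0.10. None of the list passed in edgeR, where 0% of rows did, and DESeq2 called 1 lower, where it called 0.703% of rows lower. That was the initiation factor subunit eif3ea, with 1745, 598 and 28 counts in controls and 22, 3 and 23 in mutants. In CPM that is 3159, 801 and 149 against 128, 23.6 and 91.7, so control 3 and mutant 1 nearly met. The log2 fold change of -4.49 ± 1.49 was -1.27 within the NG-8710 libraries. The elongation factor eef1a1l1, which brings aminoacyl-tRNA to the ribosome, had 3210, 2451 and 3053 CPM in controls and 1858, 646 and 1232 in mutants, with all controls above all mutants. The exception was eif3ha, at 25.3, 64.3 and 69.1 CPM in controls and 92.9, 94.6 and 578 in mutants, all mutants above all controls (1.68 ± 1.29, edgeR adjusted p = 0.677). Ribosome constituents outside the name rule were also counted: rpsa had 1267, 2606 and 4393 CPM in controls and 3228, 1908 and 909 in mutants, and its groups overlapped. It was added after its values were seen, while gnb2l1, the RACK1 gene, was on the list, at -1.26 ± 1.24.

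Factors that build ribosomes were few in the test, and their difference from the ribosomal proteins was not tested. Of 41 such names 23 were in the table and 9 tested, 5 negative and 4 positive, with a median of -0.01, and their summed level was 1276 to 1734 CPM in controls and 1080 to 2081 in mutants. The nucleolar protein gene ncl had 434, 239 and 15 counts in controls and 17, 18 and 43 in mutants (-1.98 ± 1.22, edgeR unadjusted p = 0.126). Relative to library totals control 3 lay below every mutant for ncl, so its negative value rests on controls 1 and 2. It is 1 gene of a list in which 4 of 9 went the other way. Proteins of the mitochondrial ribosome had 27 rows, of which only mrpl12 and mrps35 had counts enough for the test, at -2.62 ± 1.42 and -0.01 ± 1.26. Their summed level was 1251, 1697 and 340.4 CPM in controls and 964, 686 and 507 in mutants, with control 3 lowest. Of 9 rows for S6 kinases and their relatives, the enzymes that phosphorylate rps6 protein among them, 4 were tested, with 3 negative and 1 positive and none passing.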

How the data were processed

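Counts per gene came from 1 deposited table. The authors' filtered raw counts, so named by the file, were made from reads processed with Trimmomatic 0.36.0 and TopHat2 2.1.0 on GRCz10, per the submitters' processing notes, with no counting tool named. In 5 of the 6 columns the minimum is not 0, and 9.46% to 27.7% of rows sit at the minimum of a column. Columns were therefore read as counts plus a constant (11, 0 and 32 for controls, 30, 31 and 17 for mutants), and the constant was subtracted, an inference from the values. The authors' deposited p-values (FDR) were used only to look up members.

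Tests used R 4.3.3 and edgeR 4.0.16 (quasi-likelihood test, robust, TMM, filterByExpr, genotype as the only term, Benjamini-Hochberg over all tested rows at 0.05). DESeq2 1.42.0 and limma-voom (limma 3.58.1) were alternatives. The fit was also run on simulated counts without prefix or amplification effects, which cannot show how it performs at the spread of these libraries. The SE is the log2 fold change over the square root of F. CPM is per library total, and 3 counts equal 4.02 to 23.6 CPM. Members and lists were chosen with earlier results of these data known. Named genes were the stalk genes, the 6 members of each subunit with the highest mean CPM, the 6 with the smallest p, those above 0, like-named copies, and any absent from a group or higher in all mutants. An exact permutation test of 3 against 3 libraries cannot go below 0.1 and was not used. No length of mature transcripts was at hand, so levels were not compared between genes. A few members and list genes enter every count and sum but are not reported singly here or drawn.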

Additional observations from a re-analysis of the deposited data

How the results depend on the processing

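No member passed an adjusted p of 0.05 in any alternative to the edgeR fit that keeps more than 1 library per group. Members that DESeq2 gave no adjusted p, rpl5a and rps26l among them, could not pass there. In all 18 alternatives 82.4% to 96.7% of the members tested in each were below 0, where 35.4% to 61.9% of all rows were. The median log2 fold change of tested members was -0.80 with library totals only and -0.70 over rows averaging 50 counts or more; leaving out 1 library gave -2.08 (without mutant 1) to -1.29 (without mutant 2). Of 24 tested named genes 6 changed sign somewhere. Within the NG-8710 libraries rpl24, rpl5a, rpl8 and rps27.2 were at 0.020, 0.0095, 0.29 and -0.38. With the prefix as a term rpl8, rpl5b and rps27.2 were at 0.20, -0.082 and -0.41. Scaling by totals alone put rpl13a at 0.064, and keeping rows averaging 50 counts or more put rpl8 at 0.064. On the values as deposited and by limma-voom rpl5b was at -0.15 and -0.44. With 1 library left out rpl5b ran from -0.14 to 0.79, rps27.2 from -0.67 to 1.17 and rpl13a from -1.67 to 0.34. The large-minus-small difference in medians stayed between -0.17 and 0.31, and the mutant over control ratio of summed levels between 0.34 and 0.64. The large subunit share, mutants minus controls, was less steady. It ran from -3.99 percentage points without control 2 to 5.27 without control 1.

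Replicate numbers shared by controls and mutants showed no clear pairing: same-numbered deviations correlated at 0.08, -0.05 and 0.03 across rows. Control 1, mutant 1 and mutant 3 correlated best with their own number, and the other libraries did not. With 3 libraries per group this check cannot settle whether the libraries were paired. A replicate block gave 58 of 60 members below 0, a median of -1.53, 0 calls and rpl5b at -0.52. With counts this low, members under 3 counts in a library cannot be told from absent.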
